A study of Hydra vulgaris with 12 samples.

Results

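The small RNAs bound by the PIWI proteins Hywi and Hyli were compared, transcript by transcript and strand by strand, in wild-type Hydra vulgaris. Each immunoprecipitate (IP) was 1 library, and each library was deposited as 2 columns, counts antisense and counts sense to a set of 38747 transcripts. A transcript was taken into the comparison when it reached 10 CPM (counts per 1e6 counts of its own column) in any of these 4 columns. This gave 10707 of the 38747 transcripts (27.6%). Hywi antisense reached that level on 4826 transcripts, Hywi sense on 5587, Hyli antisense on 5026 and Hyli sense on 4424. The membership limit cut through a dense range, with 333 members whose highest column lay from 10 to under 11 CPM and 492 non-members from 9 to under 10 CPM. With 1 library a side there is no estimate of the spread between libraries, so no difference between Hywi and Hyli carries a test.

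The series asked how piRNAs hold transposons in check in the somatic stem cells of Hydra, a small freshwater polyp whose epithelial and interstitial cells renew throughout life. Both IPs came from 225 whole, untreated animals of the AEP strain kept at 18 °C, and both small RNA libraries had 18 amplification cycles and selection for 108 to 180 base pairs. Other readouts of the same transcripts are set beside them here. One is mRNA of whole animals 4 days after hatching, 10 animals a library, with 3 libraries from AEP offspring without a transgene and 3 from siblings that carried a hairpin against hywi expressed in epithelial stem cells. Another is the degradome, which reads the 5′ ends of RNA without a cap, from 20 wild-type animals in 1 library. A second Hywi IP, Hyli IP and degradome came from colchicine-treated, interstitial-cell-depleted animals of a cnnos1::GFP line, so treatment and line changed together there. In whole animals, a lower level can come from fewer cells of a type or from less RNA per cell, and the tables cannot tell these apart.

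PIWI proteins carry piRNAs, short guides that pair with complementary RNA. A piRNA antisense to a transposon transcript can direct its cleavage, and the cut product, which has no cap, can itself be loaded as a sense piRNA into a partner PIWI protein. That sense piRNA can in turn direct the cut of antisense precursors, and this cycle is called ping-pong. In such a cycle one PIWI protein can hold mainly antisense and another mainly sense piRNAs from the same elements. Counts per transcript hold no positions of the piRNAs, so whether a strand split here comes from ping-pong was not tested. Transcripts of ordinary genes can also give sense piRNAs with no antisense partner. The transcript names are not paired with gene names in the files, so neither transposon classes nor cell-type markers were checked, and transcripts carry only their names.

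The Hywi library held 22.3 M counts (M for 1e6), 19.5 M antisense and 2.81 M sense. The Hyli library held 40.5 M counts, 11.7 M antisense and 28.8 M sense. A level of 10 CPM was therefore 195 counts in the Hywi antisense column, 28.1 in Hywi sense, 117 in Hyli antisense and 288 in Hyli sense, so the Hywi sense column admitted transcripts at the lowest count. The members held 99.2%, 97.2%, 97.5% and 99.1% of these columns in that order. Counts were more concentrated in the minor column of each protein: 50% of Hywi sense counts lay on 100 transcripts and 50% of Hyli antisense counts on 148, against 402 for Hywi antisense and 286 for Hyli sense. The 3 wild-type mRNA libraries held 22.2 to 27.6 M counts and the wild-type degradome 765341. Intervals and floors given here cover counting error only. The files give no transcript lengths, so levels of different transcripts are in counts or CPM of a column and not per length.

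The most common pattern was a split of the strands between the proteins. Of the members, 9383 had at least 20 counts in each IP and could be given an antisense share in both. The other 1324 fell short, 920 of them in Hywi only and 404 in Hyli only. The median antisense share per transcript was 93.3% for Hywi (quartiles 6.23 and 99.4%) and 24.2% for Hyli (quartiles 5.39 and 74.0%). A transcript was called antisense for a protein at a share of 80% or more, sense at 20% or less and mixed between. Hywi was antisense on 5175, mixed on 895 and sense on 3313 transcripts. Hyli was antisense on 2100, mixed on 2881 and sense on 4402. Most transcripts were thus one-sided for Hywi, whereas Hyli was mixed on 30.7% of them.

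Across the 9383 transcripts the share of one protein did not follow that of the other, with a Spearman correlation of -0.06. The transcripts share the 2 libraries and their depths, so this is a description. The Hywi share was higher by at least 50 percentage points on 3901 transcripts (41.6%), and the Hyli share was higher by as much on 1557 (16.6%). The shares lay within 10 points of each other on 1625 (17.3%). Taking the calls together gave 9 classes. The largest was Hywi antisense with Hyli sense, here called opposite-strand, with 3056 transcripts (32.6%). Hywi sense with Hyli antisense, the swapped-strand class, had 762 (8.12%). Each protein alone was called antisense on 55.2% (Hywi) and 22.4% (Hyli), and sense on 35.3% and 46.9%. Whether these class sizes differ from what the separate calls would give was not tested. Both proteins were antisense on 904 transcripts and both sense on 1102. Hywi was antisense and Hyli mixed on 1215, and Hywi sense and Hyli mixed on 1449. The remaining 895, on which Hywi was mixed, split into 434 with Hyli antisense, 217 mixed and 244 sense.

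**Figure D1:**
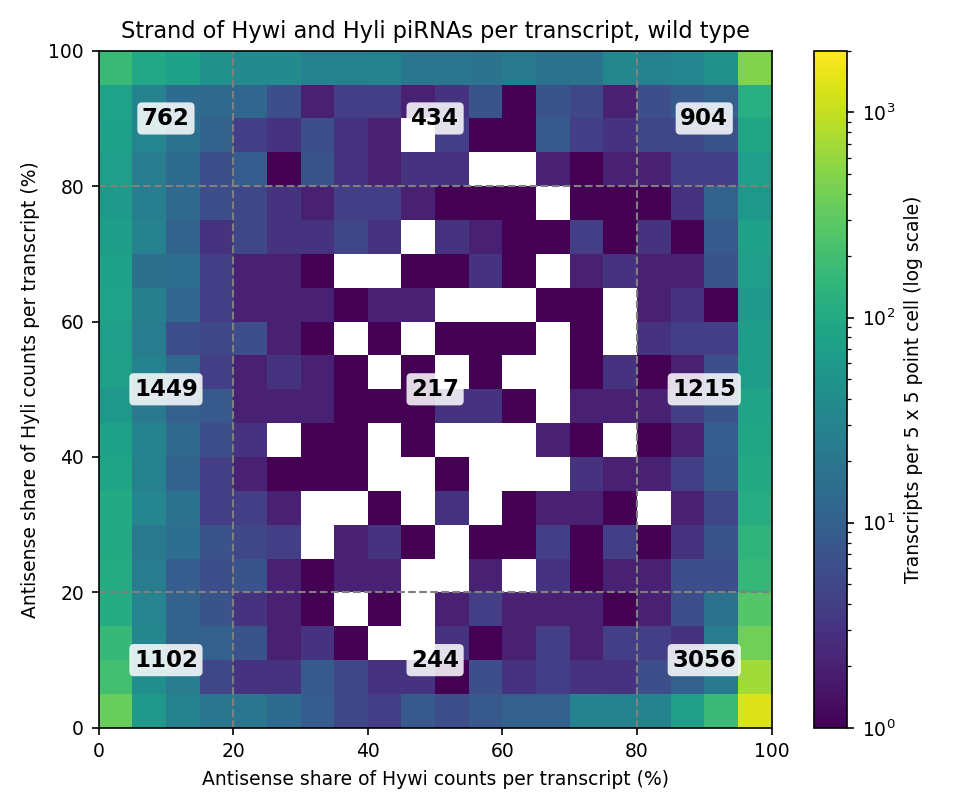
Antisense share of Hywi (x axis) and Hyli (y axis) counts per transcript, in percent, for the 9383 members with at least 20 counts in each IP; colour is the number of transcripts per cell on a log scale, white cells hold 0, dashed lines are at 20 and 80%, and boxed numbers count each class. Most transcripts lie along the edges, with the densest corner at the lower right, where the opposite-strand class holds 3056.

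The opposite-strand class carried most of the major column of each protein. It held 57.3% of all Hywi antisense counts and 79.2% of all Hyli sense counts, but 5.09% of Hywi sense and 6.85% of Hyli antisense counts. The widest 95% Wilson interval of any such class share spanned 0.107 points. Transcripts antisense in Hywi and mixed in Hyli held another 28.2% of Hywi antisense counts, and 4.00% of Hyli sense counts. Transcripts mixed in Hywi and sense in Hyli held 7.58% of Hyli sense counts.

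Most counts of the minor columns lay outside the opposite-strand class. Of Hywi sense counts, 30.0% lay on the swapped-strand class, 28.7% on transcripts sense in Hywi and mixed in Hyli, and 17.0% on those sense in both. Of Hyli antisense counts, 28.4% lay on transcripts antisense in both proteins, 23.7% on the swapped-strand class and 19.9% on those mixed in Hywi and antisense in Hyli. The classes are cut from the strands of these same counts, so which columns a class fills follows in part from its definition. By levels alone, Hywi antisense and Hyli sense both reached 10 CPM on 3333 transcripts, which is 69.1% of the Hywi antisense and 75.3% of the Hyli sense transcripts at that level. Hywi sense and Hyli antisense both reached it on 2298, or 41.1% and 45.7% of theirs. Both antisense columns did so on 2765 (57.3% of Hywi and 55.0% of Hyli), and both sense columns on 1903 (34.1% and 43.0%). Of all 10707 members, 4826 reached it in Hywi antisense, 5587 in Hywi sense, 5026 in Hyli antisense and 4424 in Hyli sense. Every member reached it in at least 1 column by the membership rule, which bears on these overlaps.

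**Figure D2:**
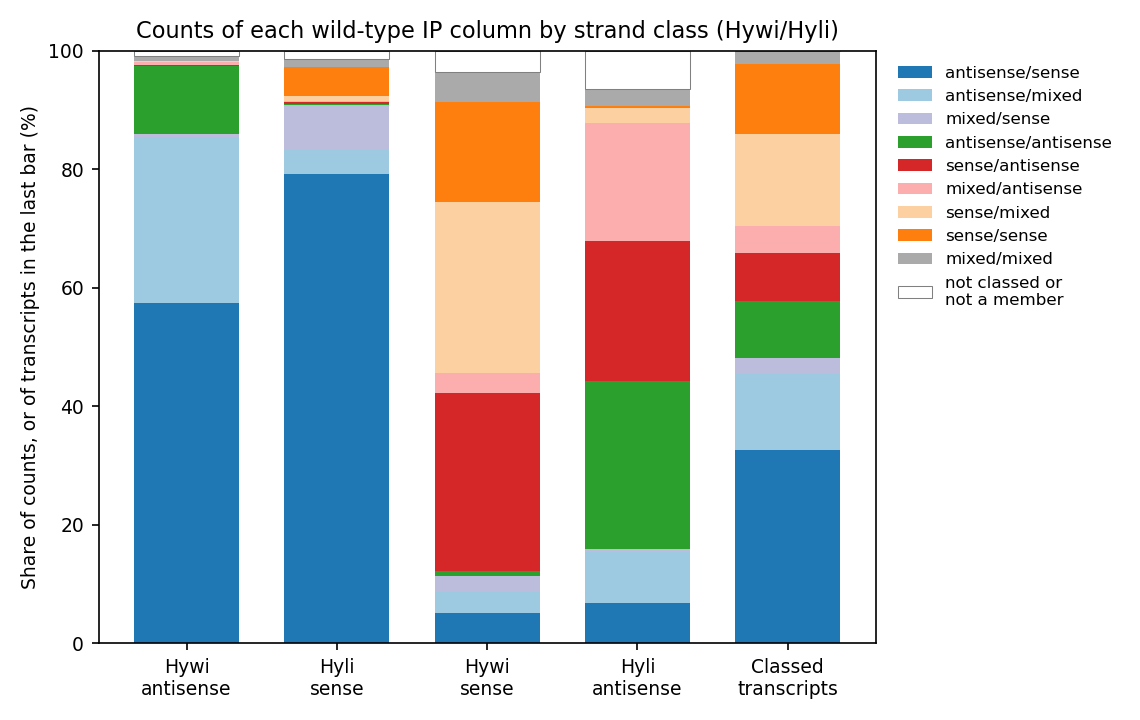
Share of the counts of each wild-type IP column, in percent, by strand class (Hywi strand before the slash, Hyli strand after it), with the classed transcripts themselves in the last bar. The opposite-strand class (dark blue) makes up 57.3% of Hywi antisense and 79.2% of Hyli sense, but 5.09% of Hywi sense and 6.85% of Hyli antisense.

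The columns differed in how many values were whole numbers. Of values of at least 100 counts, 91.3% were not whole numbers in the Hywi antisense column and 22.9% in the Hywi sense column, and the same held for 98.7% of Hyli antisense and 37.2% of Hyli sense values. Values that are not whole were more frequent on the antisense strand in both IPs, and their part in the strand shares was not tested. Over the 580 transcripts with whole numbers in all 4 columns and counts in Hywi, the antisense share of all Hywi counts was 81.6%, against 87.4% over all transcripts. For Hyli, 1144 such transcripts gave 38.9%, against 28.9%.

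Within the opposite-strand class the paired columns were compared by their levels. Each column is scaled to its own total, and this class holds much of both totals, so a median near 0 is in part set by the scaling. Hyli sense over Hywi antisense, each as CPM of its column plus 1, had a median log2 ratio of 0.18 (quartiles -1.05 and 1.51). The columns lay within 4-fold of each other on 2224 of the 3056 transcripts (72.8%), with Hyli more than 4-fold higher on 578 and Hywi on 254. The Spearman correlation of the paired columns was 0.63 across these transcripts, and 2572 of them had at least 10 CPM in both. For the swapped-strand class the same comparison of Hyli antisense with Hywi sense gave a median of -0.72. Of its 762 transcripts, 501 lay within 4-fold (65.7%), and the Spearman correlation was 0.71. Longer transcripts can gather more counts in every column, and members entered through any of the 4 columns, which bears on both correlations.

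The opposite-strand transcripts with most extreme shares show how complete the split could be. Transcript t6975aep had 8216 antisense and 35 sense counts in Hywi, and 153 antisense and 36616 sense counts in Hyli. Its antisense share was 99.6% in Hywi (95% Wilson interval 99.4 to 99.7%) and 0.415% in Hyli (0.354 to 0.486%), the largest difference among members with at least 1000 counts in each IP. Next came t6731aep, at 99.8% in Hywi (99.6 to 99.9%) and 1.12% in Hyli (0.867 to 1.45%). Transcript t3862aep had 8217 antisense and 5 sense counts in Hywi, and 328 antisense and 7395 sense counts in Hyli. For t6975aep and t3862aep the Hyli sense level was 102-fold and 144-fold the Hywi sense level in CPM of the columns, the highest of the log2 ratios on that strand. Both were low in wild-type mRNA, with 0.675, 0.726 and 0.740 CPM in the 3 libraries for t6975aep and 1.30, 1.20 and 0.935 CPM for t3862aep. The degradome held 290.0 counts of the first and 71 of the second.

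The transcripts with most Hyli sense counts were all strongly one-sided in Hyli and less so in Hywi. Transcript t6295aep led with 389079 Hyli sense and 61.3 Hyli antisense counts. Its Hywi counts were few, 376 antisense and 967 sense, so it was mixed in Hywi with an antisense share of 28.0% (25.7 to 30.5%). Transcript t28406aep had 362744 Hyli sense counts, with 8706 antisense and 836 sense counts in Hywi. Transcript t27869aep had 312630.0 Hyli sense counts, with 5505 antisense and 788 sense counts in Hywi. The last 2 belonged to the opposite-strand class, with antisense shares of 91.2% (90.7 to 91.8%) and 87.5% (86.6 to 88.3%) in Hywi, against 0.250% and 0.121% in Hyli. All 3 were well covered in the degradome, with 4298, 4774 and 2946 counts in the order named. Their mRNA levels differed widely, at 72.8 ± 7.89, 7.06 ± 0.398 and 0.645 ± 0.213 CPM (SD, n = 3).

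The transcripts with most Hywi antisense counts were antisense in Hyli as well, or mixed. Transcript t3897aep had 263499 antisense and 9925 sense counts in Hywi, and 19588 antisense and 8239 sense counts in Hyli. Its antisense share was 96.4% in Hywi and 70.4% in Hyli (69.9 to 70.9%). Transcript t37327aep was similar, with shares of 94.2% in Hywi and 79.3% in Hyli (79.0 to 79.5%), just under the limit for an antisense call. Transcript t2546aep had 206200.0 antisense and 36 sense counts in Hywi, and 24159 antisense and 239.5 sense counts in Hyli, and was called antisense in both. The degradome had 306 counts of t3897aep and 346 of t37327aep, and 0 of t2546aep.

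Transcripts antisense in both proteins were unlike in which protein held more. By column totals, Hyli antisense exceeded Hywi antisense by at least 4-fold on 361 of the 904 (39.9%), and Hywi exceeded Hyli on 183 (20.2%). Over all 7087 transcripts compared on this strand these shares were 34.3% and 48.1%. The larger side in the class depended on the scaling. By library totals, where 761 of the class were compared, 196 were higher in Hyli and 314 in Hywi. By the median ratio, 585 of the 904 were higher in Hyli and 0 in Hywi. The Spearman correlation between the proteins was 0.05. The 904 needed 10 CPM antisense in either protein, not in both, which bears on this correlation and on the 4-fold counts. Over all transcripts compared on this strand the correlation was 0.02, and 0.27 where both proteins reached 10 CPM. Transcript t24892aep, with most Hyli antisense counts of all, had 411213 antisense and 19 sense counts in Hyli and 150462 antisense and 3 sense counts in Hywi. Transcript t5148aep had 247168 antisense counts in Hyli and 672 in Hywi. In t18672aep these were 54578 and 78, the highest antisense ratio of Hyli to Hywi with the pseudocount of 1 CPM, and neither library had a sense count (the floor of 3 counts is 1.07 CPM in Hywi sense and 0.104 CPM in Hyli sense). Transcript t6693aep had 23928 in Hyli and 26.9 in Hywi, which without the pseudocount is the larger fold of these 2, at 1478 against 1162. At the other end t17556aep had 2533 antisense counts in Hyli and 81473 in Hywi, and t35732aep had 885 and 27951. These last were the lowest of all members with both strands summed, at 56.9-fold and 57.1-fold higher CPM in Hywi. The degradome held 0 counts of t2546aep, t24892aep, t18672aep, t6693aep and t35732aep, 2 of t5148aep and 12 of t17556aep.

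The swapped-strand class showed the reverse split. Transcript t21234aep had 6 antisense and 1670.0 sense counts in Hywi, and 2220.0 antisense and 17 sense counts in Hyli. Its antisense share was 0.358% in Hywi (0.164 to 0.779%) and 99.2% in Hyli (98.8 to 99.5%), the largest difference in this direction. Next was t29340aep, with 0.323% in Hywi (0.148 to 0.702%) and 98.7% in Hyli (98.2 to 99.0%). Transcript t33343aep, with the lowest Hyli to Hywi ratio on the sense strand, had 1770.0 Hywi sense and 16 Hyli sense counts, and 34 Hywi antisense and 3328 Hyli antisense counts. These 3 had next to no mRNA reads, from 0 to 0.254 CPM in the 9 library values, and 44, 23 and 9 degradome counts in the order named. Far more abundant was t1393aep, the third highest in Hywi sense, with 54309 sense and 316 antisense counts in Hywi and 102902 antisense and 3680.2 sense counts in Hyli. It had 9.37, 10.5 and 7.37 CPM of mRNA and 795 degradome counts. Transcript t35489aep, which had the most counts in the class and was picked for that after its values were seen, had 191924 antisense and 467 sense counts in Hyli and 1151 antisense and 8996 sense counts in Hywi. Transcript t16130aep, the third highest in Hyli antisense, leaned the same way with a Hyli share of 99.6% and a Hywi share of 25.0% (23.4 to 26.7%), which left it mixed in Hywi.

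Hywi sense counts without a one-sided Hyli partner included the highest single value of that column. Transcript t27024aep had 195395 sense and 10509 antisense counts in Hywi, and 39382 sense and 60074 antisense counts in Hyli. Its antisense share was 5.10% in Hywi (5.01 to 5.20%) and 60.4% in Hyli (60.1 to 60.7%). It was present in mRNA at 196, 263 and 190.5 CPM and in the degradome at 3179.8 counts. Transcript t22664aep had 2318 sense counts in Hywi and 34 in Hyli, among the lowest ratios on that strand. Transcript t30823aep differed from these in being one-sided in Hyli too, and both proteins were almost wholly sense on it. Hywi had 70733 sense and 3.99 antisense counts, and Hyli had 99826 sense and 141 antisense counts.

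**Figure D3:**
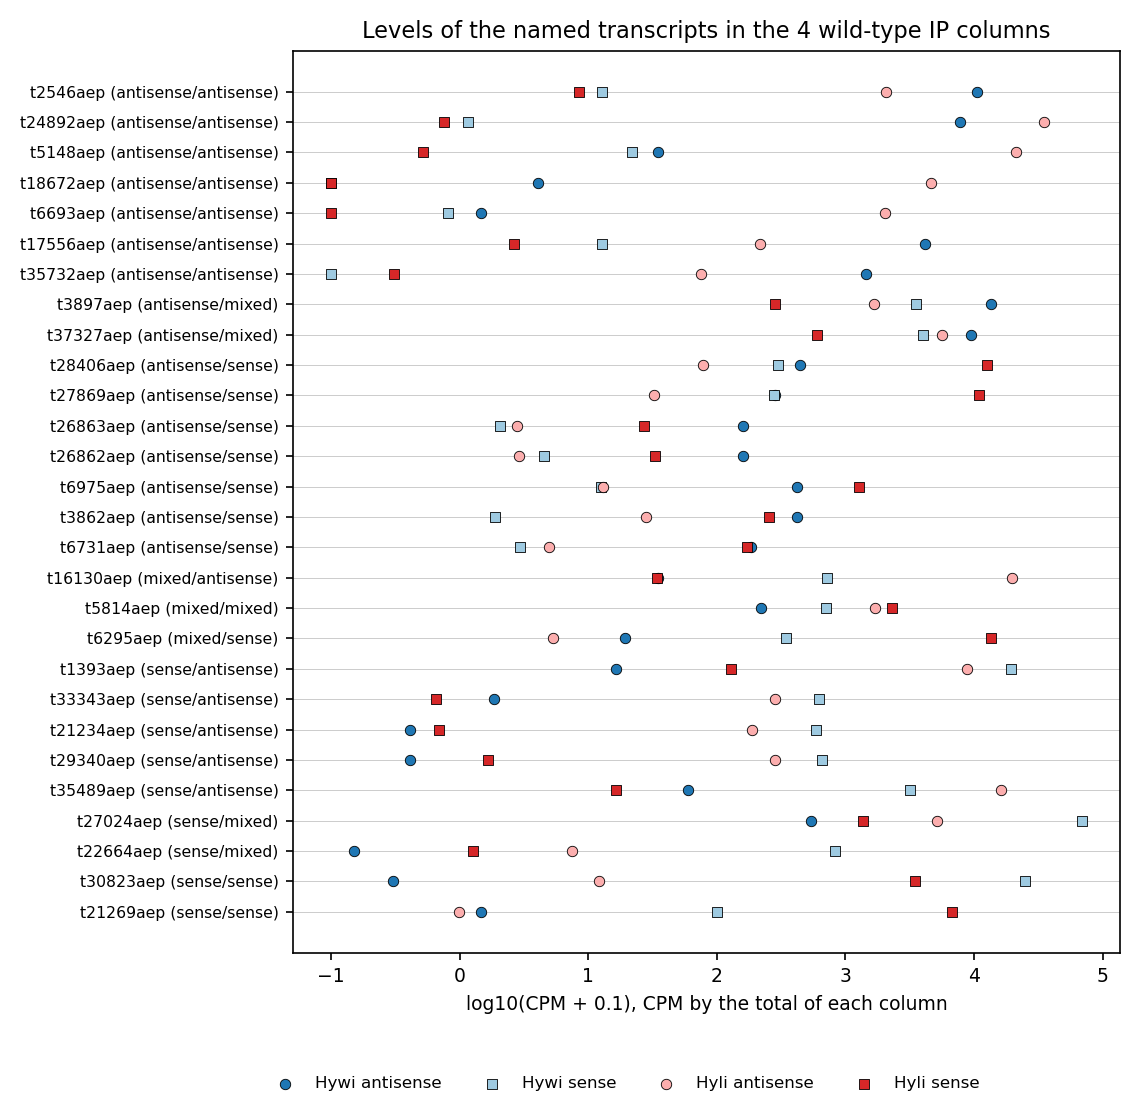
Levels of the 28 named transcripts in the 4 wild-type IP columns, as log10(CPM + 0.1) with CPM by the total of each column; blue marks are Hywi, red and pink marks Hyli, circles antisense and squares sense, and the class follows the name. Opposite-strand transcripts such as t6975aep pair a high blue circle with a high red square, and swapped-strand transcripts such as t21234aep pair a high pale blue square with a high pink circle.

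On a single strand the proteins often differed by more than 4-fold. On the antisense strand, 7087 transcripts had at least 10 CPM in either protein. Hyli was at least 4-fold higher on 2428 (34.3% of those compared) and Hywi on 3412 (48.1%), with a median log2 ratio of Hyli over Hywi of -1.84 and a Spearman correlation of 0.02. On the sense strand, Hyli was at least 4-fold higher on 3207 of 8108 transcripts (39.6%) and Hywi on 3586 (44.2%), with a median of -0.90 and a correlation of -0.21. With both strands summed, 3678 of 7101 transcripts (51.8%) lay within 4-fold, Hyli was higher on 1718 (24.2%) and Hywi on 1705 (24%), and the correlation was 0.41. Each count covers only the members that reach 10 CPM on that strand in either protein, and the percentages are of those. A transcript that passed in 1 protein alone did so through the column where it was high, which bears on these counts and correlations. Where both proteins had at least 10 CPM, with no pseudocount, the antisense strand gave 270 transcripts higher in Hyli and 1709 in Hywi of 2765, with a median of -2.63 and a correlation of 0.27. The sense strand then gave 953 higher in Hyli and 312 in Hywi of 1903, with a median of 2.01 and a correlation of -0.03, so the larger side changed. Summed strands gave 517 and 757 of 4152, with a correlation of 0.44.

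Which protein held the larger side on a strand depended on the scaling as well. Of the antisense transcripts past 4-fold, 41.6% were higher in Hyli by column totals, 23.2% by library totals over both strands and 98.1% when scaled by the median ratio. The median of the transcripts compared moved by -1.64 and 2.47 on the log2 scale in the last 2 settings. For the sense strand these shares were 47.2%, 84.1% and 27.2%, with shifts of 5.18 and -1.65. With both strands summed they were 50.2%, 50.2% and 58.0%, the last with a shift of 0.32. Library totals also changed which transcripts reached 10 CPM, from 7087 to 5866 antisense and from 8108 to 4631 sense. The shares and shifts by library totals therefore mix the scaling with a change of set. No direction over all transcripts is therefore read from these counts. The strand shares within a library need no scaling.

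Relative to these medians the classes stood at opposite ends. On the antisense strand the opposite-strand class had a median log2 ratio of Hyli over Hywi of -2.96 (quartiles -3.42 and -2.45), and the swapped-strand class had 5.53. On the sense strand these were 3.91 (quartiles 3.11 and 4.65) and -5.19. Since a class is defined by the strand shares within each library, this order follows in part from the definition. Within the opposite-strand class, the Spearman correlation of Hyli antisense with Hywi antisense was 0.88 across the 2748 transcripts compared, and that of Hywi sense with Hyli sense was 0.80 across 2885. The minor column of each protein was thus higher where the major column of the other was higher, and these transcripts share the 2 libraries and differ in length. Among its lowest ratios were t26863aep and t26862aep, with 3122 and 3115 antisense counts in Hywi and 31.5 and 33.0 in Hyli. Their like values and fractional counts (5.50 and 12.5 Hywi sense counts) mean that the values of each alone are uncertain.

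**Figure D4:**
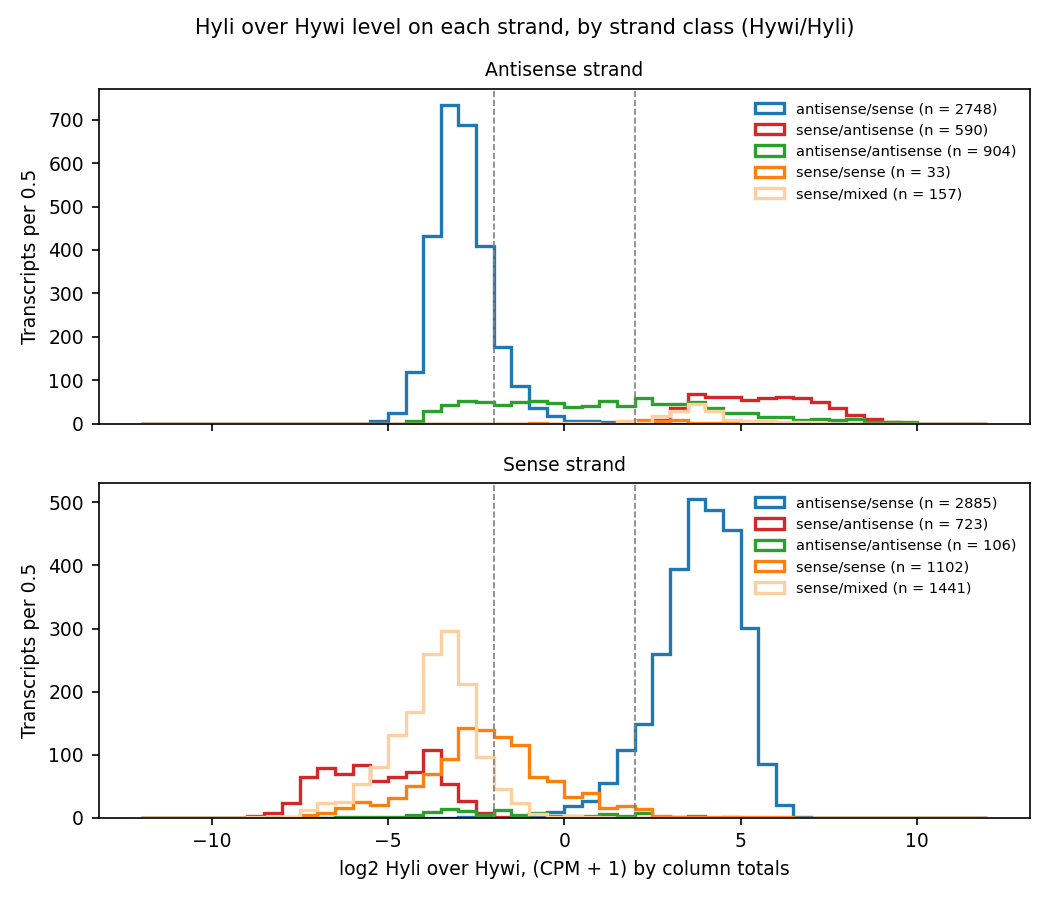
Distribution of the log2 ratio of Hyli over Hywi, (CPM + 1) by column totals in bins of 0.5, on the antisense strand (top) and the sense strand (bottom), for 5 of the 9 strand classes; dashed lines mark 4-fold. The opposite-strand class peaks near its medians of -2.96 and 3.91, and the swapped-strand class lies on the other side on both strands.

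The degradome was high where Hyli sense counts were high. Across the 10707 members the Spearman correlation of the wild-type degradome was 0.86 with Hyli sense, 0.45 with Hywi antisense, 0.41 with Hywi sense and 0.10 with Hyli antisense. Transcript length can raise all such correlations, since longer transcripts can gather more counts in every library, and it is not in the files. Members also entered through any of the 4 IP columns, which bears on these correlations. At least 3 degradome counts, the floor (3.92 CPM), were found on 2906 of the 3056 opposite-strand transcripts (95.1%). The same held for 224 of the 244 transcripts mixed in Hywi and sense in Hyli (91.8%) and 859 of the 1102 sense in both (78.0%). It held for 433 swapped-strand transcripts (56.8%), and for 97 of the 904 antisense in both (10.7%). Among all members the share was 59.8%, and among transcripts outside the comparison 3.99%. The median level was 43.8 CPM in the opposite-strand class, 5.23 CPM in the swapped-strand class, 14.4 CPM on transcripts sense in both and 0 on those antisense in both.

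As a share of all degradome counts, the opposite-strand class held 41.2% and the transcripts sense in both held 44.2%. The second value rested on 2 transcripts, t22393aep with 25.0% of the library and t14592aep with 13.2%. Without them the shares were 66.7% for the opposite-strand class and 9.74% for those sense in both. These 2 were named for their degradome counts after those were seen. Both had 0 Hywi antisense counts, and t22393aep had 6927 Hywi sense and 52225.5 Hyli sense counts.

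Within the opposite-strand class the degradome was higher where the piRNAs were more abundant. In 4 groups of 764 transcripts, ranked by the geometric mean of the Hywi antisense and Hyli sense levels, the median degradome level was 9.15, 26.1, 70.6 and 249.9 CPM from the lowest to the highest. The median mRNA level was 0.333, 0.480, 0.941 and 2.87 CPM in the same order. Levels are not per length, and longer transcripts can gather more counts in every library. The part of length in these rises was not tested. The strand shares moved little, with median Hywi shares of 98.9 to 99.1% and Hyli shares of 5.58, 5.14, 4.21 and 3.60%.

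The classes also differed in mRNA. The median mRNA level of wild-type siblings was 130.2 ± 4.21 CPM (SD of the medians of 3 libraries) on transcripts sense in both proteins and 54.5 ± 6.58 CPM on those sense in Hywi and mixed in Hyli. It was 0.780 ± 0.134 CPM in the opposite-strand class, 1.35 ± 0.196 CPM in the swapped-strand class and 0.348 ± 0.0557 CPM on transcripts antisense in both. The medians of the sense-in-both class lay far above those of the other named classes in each of the 3 libraries. A mean of at least 1 CPM was found on 98.0% of the transcripts sense in both, 95.7% of those sense in Hywi and mixed in Hyli, 43.2% of the opposite-strand class and 22.5% of those antisense in both, against 40.0% of all transcripts. The swapped-strand class was broad, with quartiles of 0.310 and 26.0 CPM. Across members the Spearman correlation with mRNA was 0.52 for Hywi sense, 0.04 for Hyli sense, -0.34 for Hyli antisense and -0.41 for Hywi antisense. Members entered through any of these columns, which bears on these correlations. Those at 10 CPM in Hywi sense alone had a median mRNA of 52.3 CPM. The median was 0.719 CPM for Hyli sense alone, 0.269 CPM for Hyli antisense alone and 0.233 CPM for Hywi antisense alone.

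Many transcripts entered the comparison through the Hywi sense column alone. The largest single pattern at 10 CPM was that column by itself, on 2697 members (25.2%), with a median mRNA of 52.3 CPM and fewer than 3 degradome counts on 54.8%. When membership was set by library totals, the class sense in Hywi and mixed in Hyli fell from 1449 to 232 transcripts and that sense in both from 1102 to 387. The opposite-strand class moved from 3056 to 2971, while all classed transcripts fell from 9383 to 6575. The other frequent patterns were Hyli antisense alone on 1289 members, with under 3 degradome counts on 95.9%, and all 4 columns on 1206, with a median degradome level of 156 CPM.

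**Figure D5:**
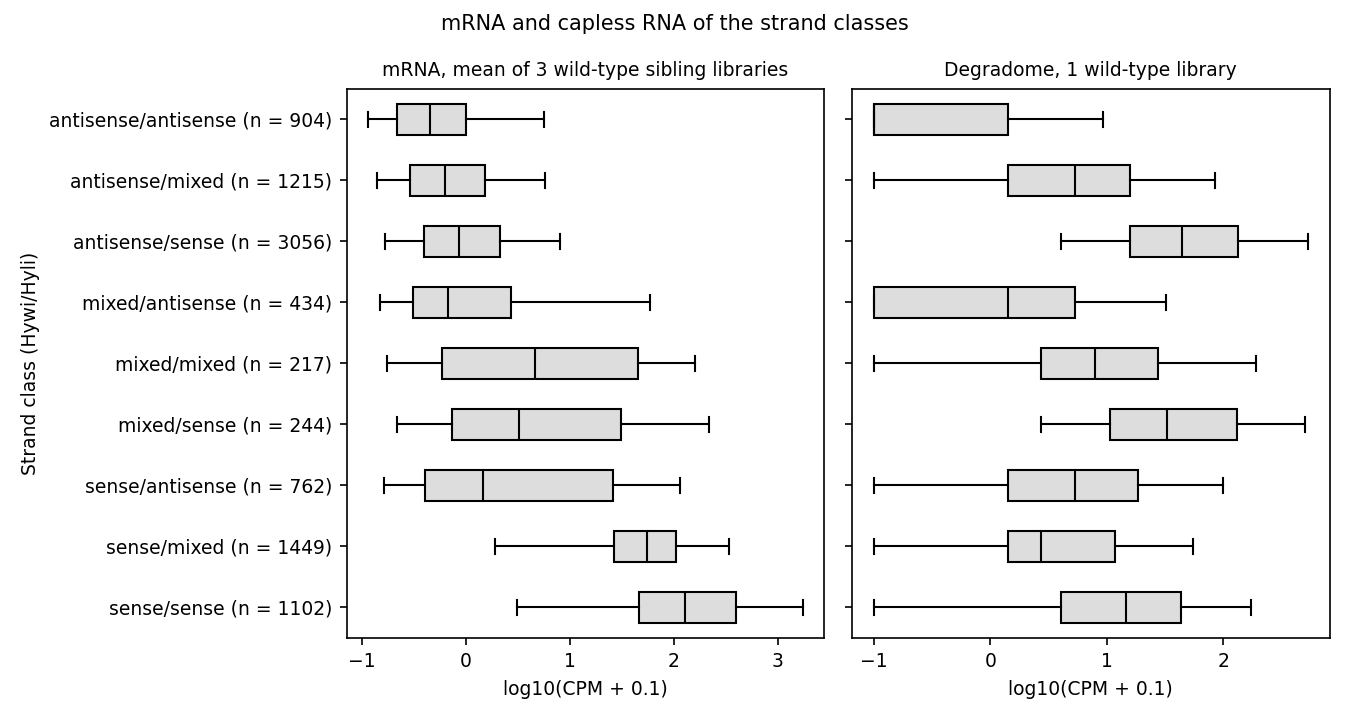
mRNA (mean of 3 wild-type sibling libraries, left) and degradome (1 wild-type library, right) of each strand class as log10(CPM + 0.1); boxes span the quartiles with the median as a line, and whiskers reach the 5th and 95th percentiles. Median mRNA is highest in the class sense in both proteins, and median degradome is highest in the opposite-strand class at 43.8 CPM.

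The colchicine IPs, which did not enter the choice of members or classes, held most of the same transcripts. They held 19.4 M counts for Hywi and 12.8 M for Hyli. The same rule gave 11641 members there, of which 8439 were shared (78.8% of the wild-type and 72.5% of the colchicine members). Of the opposite-strand class, 2796 transcripts had at least 20 counts in both colchicine IPs. Hywi was antisense on 98.8% of them and Hyli sense on 57.0%, and 56.4% kept their class. Over all members with enough counts there, Hywi was antisense on 59.8%, Hyli sense on 33.2% and Hyli antisense on 30.4%. The antisense share of all Hyli counts was 48.0% in the colchicine library, against 28.9% in wild type, and its part in the change of class was not tested. The median antisense share of the opposite-strand class was 99.8% in Hywi and 15.3% in Hyli. Of the transcripts antisense in both, 630 of 730 kept their class (86.3%), the highest share of any class. The swapped-strand class kept 214 of 595 (36.0%), with Hyli still antisense on 71.3% and Hywi still sense on 58.2%. Transcripts sense in both kept their class in 58.1% of cases and those mixed in both in 18.4%.

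Single transcripts showed both outcomes. In t21234aep the antisense shares under colchicine were 9.12% in Hywi and 96.9% in Hyli, and in t35489aep 7.99% and 99.9%, so both kept the swapped arrangement. Transcript t28406aep kept the opposite arrangement at 99.4% in Hywi and 5.67% in Hyli. In contrast, t21269aep was sense in both proteins in wild type, with 26.6 antisense and 282 sense counts in Hywi and 194226 sense counts in Hyli. Under colchicine it had 4727 antisense and 19 sense counts in Hywi (99.6%) and a Hyli share of 3.27%, which is the opposite-strand arrangement. Its mRNA varied among the wild-type libraries, at 441, 109.7 and 128 CPM.

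In the hywi knockdown, mRNA of the opposite-strand class was compared over the 1410 transcripts with a mean of at least 1 CPM. Their median level relative to the mean of all 6 libraries, on the log2(CPM + 1) scale, was 0.08, -0.13 and -0.30 in the wild-type libraries and 0.27, -0.02 and 0.09 in the knockdown libraries. The groups overlapped, since wild-type library 1 lay above knockdown library 2. The median difference, knockdown minus wild type, was 0.23, and 94.0% of the transcripts lay above 0. This difference ranged from 0.13 to 0.33 when each library was left out in turn. The values were 0.07 and 65.6% for all transcripts, and 0.13 and 74.1% for all members. The transcripts share the 6 libraries, so these percentages are a description. Over all transcripts, too, wild-type library 3 was lowest (-0.11) and knockdown library 1 highest (0.11). Transcripts antisense in Hywi and mixed in Hyli were close to the opposite-strand class, with a median difference of 0.22 and 91.2% above 0. For those mixed in both these were 0.21 and 83.6%. The median difference was 0.20 for transcripts antisense in both, 0.15 for the swapped-strand class and -0.00 for those sense in both, of which 48.7% lay above 0. The low-mRNA and high-mRNA classes are not on equal terms on this scale, because a pseudocount of 1 CPM shrinks differences of low transcripts.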

How the data were processed

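The small RNA and degradome values are estimated counts for each transcript, raw per the file headers. Small RNA has an antisense and a sense column for each library, and the degradome has sense alone. The mRNA table held estimated counts deposited by the authors for each replicate. The submitters' processing notes name cutadapt, Bowtie and RSEM 1.2.31 for the IPs, and Trimmomatic 0.33 and Bowtie 1.1.2 with the mRNA; read lengths kept, mismatches allowed and the handling of multiple mapping are not given in the sources used here. Each of the 16 value columns was assigned to a sample through its name, and 0 remained unassigned.

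Counts were scaled to CPM by the total of each column. Shares have 95% Wilson intervals. Ratios used a pseudocount of 1 CPM and were taken where either column reached 10 CPM, which understates differences of low transcripts. The named transcripts are the 3 highest of each IP column, the 2 highest and 2 lowest ratios on each strand and summed, and the 2 largest and 2 smallest share differences at 1000 counts in each IP. Others were chosen after their values were seen: for each class the transcript with most counts (t35489aep, t5814aep and t21269aep among them, the last also by the rule), and the 2 with most degradome counts. The members, classes and named transcripts were chosen with earlier results of these data known. Alternatives were other CPM and count minimums, dominance thresholds, scalings and pseudocounts. The mRNA replicates are 3 libraries of siblings, and n is libraries. No transcript name matched the 28925 genes of the reference table (0 matches), so no sequence or gene name is given; 6 members shared all 4 values with another member, and 0 of these are named. The calculations were tested on simulated data in Python 3.11.15 (matplotlib 3.10.9, scipy 1.17.1, pandas 2.3.3, numpy 2.4.6).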

Additional observations from a re-analysis of the deposited data

How the results depend on the processing

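The count of the opposite-strand class stayed within 1.5 times of 3056 in every setting run, from 2241 at 90% dominance to 3456 at 70%. Its share of the classed transcripts was less stable, because their number changed. The class had 3056 of 9383 in the main setting and 3404 of 11548 at 1 CPM. It had 2249 of 5227 at 50 CPM, 2666 of 4785 with 200 counts per IP and 2971 of 6575 by library totals. Counts of other classes in these settings have the same totals. The other counts moved more. Without the 100 transcripts with most counts on each strand, the antisense share of all counts was 91.2% in Hywi and 24.7% in Hyli, and over whole-number transcripts 81.6% and 38.9%. The median shares of Hywi and Hyli were 90.8% and 28.0% at a member minimum of 1 CPM, 97.8% and 16.9% at 50 CPM, 98.8% and 11.6% with 200 counts per IP, and 98.5% and 15.6% with membership by library totals. The antisense-in-both class fell to 502 at 50 CPM and 377 with 200 counts. The sense-in-both class fell to 368, 166, 655 (90% dominance) and 387 (library totals). The swapped-strand class fell to 468, 344, 374 and 460 in the same 4 settings. Hywi antisense and Hyli sense shared 5728 transcripts at 1 CPM and 1631 at 50 CPM.

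On the antisense strand, Hyli was 4-fold higher on 4332 transcripts at 1 CPM, 1211 at 50 CPM and 1229 by library totals, and Hywi on 58 by the median ratio. On the sense strand, Hywi was higher on 5662, 1263 (50 CPM) and 670 (library totals), and Hyli on 2011 at 50 CPM and 1584 by the median ratio. Summed, 894 and 1011 were higher in Hyli and Hywi at 50 CPM. With both columns at 10 CPM and no pseudocount, Hyli and Hywi were higher on 270 and 1709 (antisense), 953 and 312 (sense) and 517 and 757 (summed). The larger side therefore changed. On the antisense strand it passed from Hywi (3412 against 2428) to Hyli at 1 CPM (4332 against 3588) and by the median ratio (2928 against 58). On the sense strand it passed from Hywi (3586 against 3207) to Hyli at 50 CPM, by library totals (3538 against 670) and with both columns at 10 CPM. Summed, it passed from Hyli (1718 against 1705) to Hywi at 50 CPM, with a pseudocount of 0.1 CPM (1805 against 1798) and with both columns at 10 CPM. The knockdown difference of transcripts sense in both, -0.0046, was 0.0023 without knockdown library 2, and no direction is read from it. Without the 2 transcripts with most degradome counts, the degradome shares were 66.7% for the opposite-strand class and 9.74% for those sense in both. Membership by library totals, both columns at 10 CPM and the degradome without 2 transcripts were chosen after seeing the data. The cause of these moves was not tested. No paired analysis was possible because each IP is 1 library and the comparison comes from no test. Depth limits most the Hywi sense column, where 10 CPM is 28.1 counts.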

Other observations

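The 434 transcripts mixed in Hywi and antisense in Hyli had a median Hyli antisense level of 116 CPM, against 39.4 CPM on transcripts antisense in both proteins. The 217 mixed in both had a median mRNA level of 4.42 ± 0.784 CPM (SD of the medians of 3 libraries), and 66.4% of them reached 3 degradome counts. Transcript t5814aep, which had the most counts of those mixed in both and was chosen for that after its values were seen, had 4261 antisense and 2000.5 sense counts in Hywi. In Hyli it had 19782 antisense and 66566 sense counts. Its antisense share was 68.0% in Hywi and 22.9% in Hyli in wild type, and 97.2% and 71.0% under colchicine.

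The colchicine degradome, with 0.177 M counts, is the shallowest library, and 3 counts there are 17.0 CPM. The opposite-strand class held 58.8% of its counts and the transcripts sense in both proteins held 12.7%. In the wild-type degradome these shares were 41.2% and 44.2%, or 66.7% and 9.74% without the 2 transcripts with most counts there. The colchicine shares were not taken without these 2 transcripts, so no change between the libraries is read from them.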
